A study of Mus musculus with 31 samples.

Results

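Glutathione, glucuronide and sulfate transferases of the liver were followed across 31 recombinant inbred mouse strains. The group holds every probe annotated to a single gene whose symbol begins with Gst and a class letter, Mgst, Ugt or Sult followed by a number. This gave 41 genes with 1 probe each, among 15095 genes named on the array and 21765 probes with a value on every array. They were 20 soluble glutathione transferases (Gst), 2 membrane-bound ones (Mgst), 7 Ugt genes and 12 sulfotransferases (Sult). The Ugt genes encode UDP-glucuronosyltransferases, except for Ugt8a, a galactosyltransferase. RefSeq (GRCm38.p6) lists 68 coding genes with such symbols, and those outside the 41 were not analysed here.

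The samples were whole livers of BxD/TyJ strains, inbred lines descended from C57BL/6J crossed to DBA/2J, in which each locus is fixed for the allele of either parent. The labels give no treatment. All strain mice were male and 8 weeks old, and RNA of 3 mice was pooled for each strain. Each pool was hybridised on 1 2-colour array, labelled with Alexa Fluor 647, against C57BL/6J liver RNA pooled from 9 mice and labelled with Alexa Fluor 555. Strains differ in many loci at once and no pool was measured again, so the spread between strains includes that between pools and arrays. A p-value over strains is set against this mixed spread, and the reference enters without a spread of its own. Dyes were never exchanged, so that a dye effect on a probe adds to its mean. Values are normalized ratios read as log2 of strain over reference. That direction is likely, since red, over green in limma, held the strain RNA, but neither it nor the log base is given in the sources used here. A value of 1 then stands for a level 2 times that of the reference.

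These enzymes attach a water-soluble group to drugs, pollutants and the body's own products, the step known as phase II of drug metabolism. Glutathione transferases join glutathione to reactive electrophiles, UDP-glucuronosyltransferases add glucuronic acid to bilirubin, steroids, bile acids and drugs, and sulfotransferases add sulfate from the donor PAPS to phenols, steroids and bile acids. The liver is a main site of all 3, and many of the genes lie in clusters of close copies. Several are known to respond to the stress-activated factor NRF2 or to differ between male and female liver.

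Strains 23, 28, 40 and 42 had arrays unlike the others, here called the 4 arrays that stood apart, with a median correlation with the other arrays of 0.24, 0.37, 0.06 and 0.33. The array of strain 38 had 0.57 and the remaining ones 0.67 to 0.79. The 2532 probes whose identifier is a multiple of 8 had a median mean of -0.58, with 89.6% below 0, against a median of 0.04 for all other probes, and Mgst3 is the only member among them. A ratio to another liver pool cannot show how strongly a gene is expressed, so levels of different genes were not compared and the hepatocyte markers, 9 of 10 of them measured, check nothing about tissue content. Probe sequences were not used here, and a probe for one member of a cluster may also report its close copies. In whole liver, fewer cells of a type and less RNA per cell cannot be told apart.

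Over the panel, 17 members were higher and 12 lower than the reference, while 12 did not pass (limma's moderated test of the mean against 0, Benjamini-Hochberg adjusted p under 0.05 over all probes). The glutathione transferases lay mostly above the reference, with 12 of 20 higher and 4 lower. The Ugt genes lay mostly below it, with 5 of 7 lower and 1 higher, the galactosyltransferase Ugt8a. The sulfotransferases split, with 3 higher, 2 lower and 7 of 12 not passing. The count has to be read against the whole array: 75.0% of all probes passed, 37.4% higher and 37.6% lower, against 70.7%, 41.5% and 29.3% of the members. A mean that differs from the reference was thus about as frequent among the members as among all probes. When only means beyond 0.2 in either direction were asked for, 9 members passed, 7 higher and 2 lower.

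**Figure D1:**
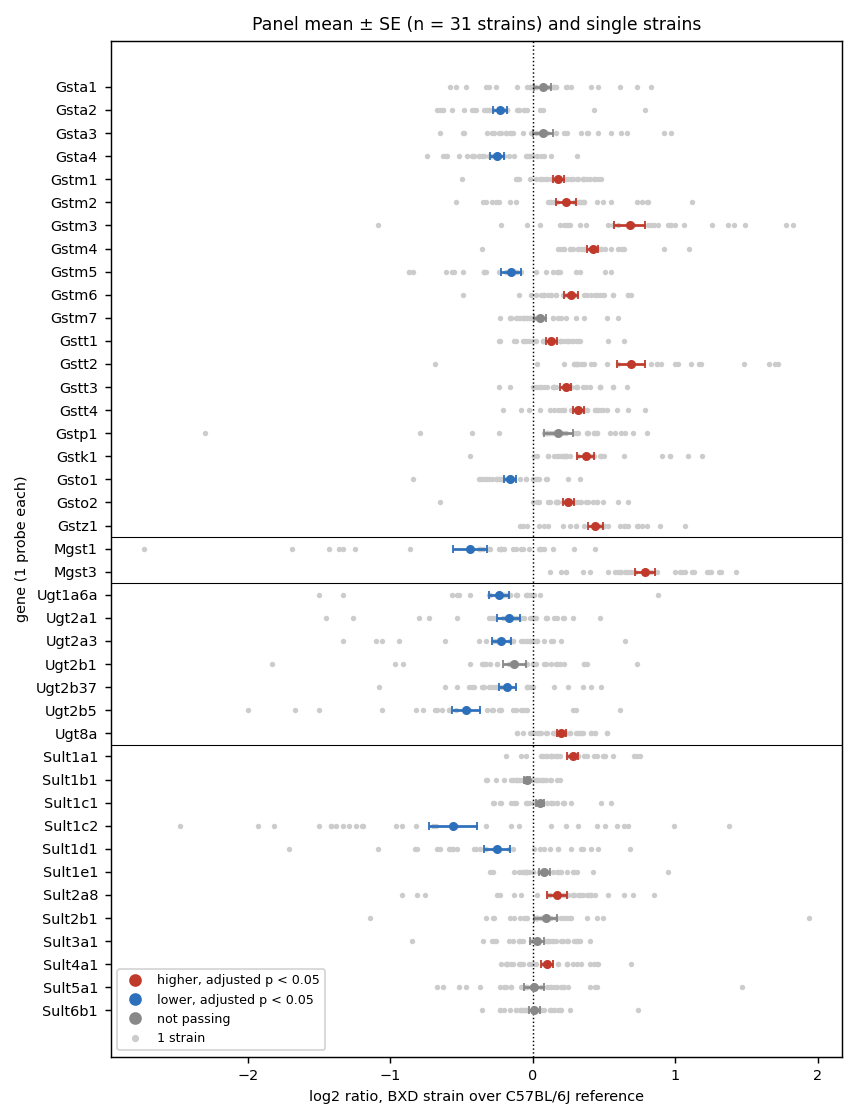
Log2 ratio of each BXD strain over the C57BL/6J reference for the 41 genes (grey points, 31 strains per gene) with the panel mean ± SE, coloured by the direction of a passing mean. Mgst3 lies above 0 in 31 of 31 strains, Ugt2b5 below 0 in 28, and Sult1c2 has the widest spread, from -2.48 to 1.38.

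Among the alpha-class glutathione transferases, which detoxify lipid peroxides and their products, 2 of 4 were lower and none was higher. Gsta4, which conjugates the lipid aldehyde 4-hydroxynonenal, ranged from -0.74 in strain 42 over a median of -0.28 to 0.31 in strain 9, and its mean was -0.25 ± 0.05 (SE, n = 31, adjusted p = 8.8e-06). Gsta2 ranged from -0.67 in strain 15 over a median of -0.24 to 0.79 in strain 38, with a mean of -0.23 ± 0.05 (adjusted p = 0.00023). Both genes were below 0 in most strains, 25 of 31 for Gsta4 and 27 of 31 for Gsta2, and strain 38 was the clear exception for Gsta2, since its next highest strain stood at 0.43. Gsta3, the alpha gene with the widest spread, ran from -0.65 in strain 14 over 0.02 to 0.97 in strain 2, and its mean of 0.07 ± 0.07 did not pass (adjusted p = 0.33). Strains 2 and 22 were highest for Gsta3, and 16 strains lay above 0 against 15 below. Gsta1 had a mean of 0.07 ± 0.06 (adjusted p = 0.25).

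The mu class, encoded by a tight gene cluster, had 5 of 7 members above the reference and 1 lower. That is the largest count of a class, but it is also the largest class, and all 4 theta-class genes were higher. Gstm3 ranged from -1.09 in strain 28 over a median of 0.70 to 1.83 in strain 2. Its mean of 0.68 ± 0.11 corresponds to 1.60-fold the reference (adjusted p = 4.5e-07). It was above 0 in 28 strains, with strains 2 and 22 near 1.8 and strains 14, 28 and 31 below 0. Gstm4 was less variable, from -0.36 in strain 40 over 0.42 to 1.10 in strain 9, and stood above the reference in 30 of 31 strains (mean 0.42 ± 0.04, adjusted p = 1.9e-10). Gstm2 ranged from -0.54 in strain 40 over 0.29 to 1.12 in strain 2 (mean 0.23 ± 0.07, adjusted p = 0.0024). The exception to the direction of the class was Gstm5, known for its expression outside the liver, with a mean of -0.15 ± 0.07 (adjusted p = 0.033), which a robust fit left just short of passing (adjusted p = 0.063). Gstm6 had 0.27 ± 0.05 and Gstm1 0.18 ± 0.04, both passing, and Gstm7 had 0.05 ± 0.04 and did not pass.

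Gstm2 and Gstm3 lie next to each other with no other coding gene between them, and their levels followed each other across strains more closely than those of any other pair of glutathione transferases. The 250 bases before their RefSeq starts (GRCm38.p6, Gstm2 at chr3:107986421-107986670, Gstm3 at chr3:107969175-107969424, both on the minus strand) are shown for this pair. Capitals mark TTGCNNAA, a motif of the C/EBP type searched on both strands.
Gstm2: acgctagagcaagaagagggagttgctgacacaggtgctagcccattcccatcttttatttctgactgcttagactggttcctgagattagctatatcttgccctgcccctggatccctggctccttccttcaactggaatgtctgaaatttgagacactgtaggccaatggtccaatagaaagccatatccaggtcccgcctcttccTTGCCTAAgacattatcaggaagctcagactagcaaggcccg
Gstm3: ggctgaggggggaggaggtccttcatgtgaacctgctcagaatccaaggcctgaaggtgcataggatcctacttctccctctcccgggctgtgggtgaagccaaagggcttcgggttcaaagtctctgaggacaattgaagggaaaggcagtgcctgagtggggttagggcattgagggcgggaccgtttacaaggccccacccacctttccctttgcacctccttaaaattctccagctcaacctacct
Aligned end to end, these stretches shared 46.1% of aligned positions. Gstm2 holds 1 match and Gstm3 none, in a window where 10.8% of all genes hold one.

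All 4 theta-class genes were higher. Gstt2, an enzyme that acts on small halogenated and sulfate-carrying compounds, ranged from -0.69 in strain 40 over a median of 0.60 to 1.72 in strain 15, with a mean of 0.69 ± 0.10, or 1.61-fold (adjusted p = 3e-08). It was above 0 in 30 of 31 strains. Strains 15, 27, 34 and 39 formed its upper end, at 1.48 to 1.72, and the next strain stood at 1.18. Its neighbours in the family varied less: Gstt4 ran from -0.21 in strain 40 over 0.34 to 0.79 in strain 19 (mean 0.32 ± 0.04, adjusted p = 5.3e-09) and Gstt3 from -0.24 in strain 34 over 0.22 to 0.66 in strain 38 (mean 0.23 ± 0.04, adjusted p = 1.9e-06). Gstt1 had 0.13 ± 0.04 (adjusted p = 0.0027).

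Gstz1, the maleylacetoacetate isomerase of tyrosine breakdown, ranged from -0.09 in strain 28 over 0.48 to 1.07 in strain 5 and was higher on average (0.44 ± 0.05, adjusted p = 1.1e-09). The kappa-class Gstk1, found in mitochondria and peroxisomes, was also higher, from -0.44 in strain 38 over 0.23 to 1.19 in strain 36 (0.37 ± 0.06, adjusted p = 2.2e-06). Strains 8, 18, 29, 34 and 36 stood at 0.91 or more for Gstk1, and strain 38 was the only strain below 0. The omega-class genes, which reduce dehydroascorbate and arsenic compounds, went opposite ways although no other coding gene lies between them: Gsto2 had a mean of 0.25 ± 0.04 (adjusted p = 2e-06) and Gsto1 one of -0.16 ± 0.04 (adjusted p = 0.00064). Across strains their values were unrelated (r = -0.07, rho = 0.09, permutation p = 0.7 and 0.6, r = -0.15 without strains 5 and 40, and adjusted p = 0.91 in the regression over all probes).

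Gstp1, the pi-class enzyme and one of the best known sex-biased genes of mouse liver, higher in males, ranged from -2.30 in strain 38 over a median of 0.29 to 0.80 in strain 18. It lay above 0 in 27 strains, and strain 39, at -0.79, was the next lowest. Its mean of 0.18 ± 0.10 did not pass (adjusted p = 0.093), but without strain 38 it was 0.26 and passed (adjusted p = 0.00017), and its SD fell from 0.56 to 0.33. RefSeq lists 3 Gstp coding genes of which only Gstp1 was a member here. Its upstream stretch (GRCm38.p6, chr19:4037913-4038162, minus strand) is shown because of this single-strain drop, with the AP-1 motif TGAGTCA in capitals.
Gstp1: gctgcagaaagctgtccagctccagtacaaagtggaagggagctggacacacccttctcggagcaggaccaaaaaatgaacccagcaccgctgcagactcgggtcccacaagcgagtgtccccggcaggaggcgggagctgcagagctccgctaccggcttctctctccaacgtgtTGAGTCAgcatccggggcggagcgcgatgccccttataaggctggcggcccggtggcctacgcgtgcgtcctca
That motif was found on either strand upstream of 5 of the 38 members with a RefSeq promoter, namely Gstm5, Gstp1, Sult1c1, Sult2b1 and Ugt2b37, and of 5.16% of all genes. The antioxidant response core TGACNNNGC, to which NRF2 binds, stood upstream of Gsta3, Gstm5, Gstm7 and Mgst1, or 10.5% of these members, against 11.5% of all genes.

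The membrane-bound enzymes Mgst1 and Mgst3, which also reduce lipid peroxides, lay on opposite sides of the reference. Mgst3 ranged from 0.12 in strain 38 over 0.72 to 1.43 in strain 18 and was above 0 in every strain (mean 0.79 ± 0.07, or 1.73-fold, adjusted p = 3.2e-13). Its probe is one of those with an identifier that is a multiple of 8, although its own mean is high, and that mean was 1.36 once the median of each class of places was taken off each array. Mgst1 ranged from -2.73 in strain 28 over -0.22 to 0.44 in strain 9, with a mean of -0.44 ± 0.12 (adjusted p = 0.00093). Its low end was made up of strains 8, 23, 28, 38, 39, 40 and 42, all at -0.86 or below, while the other 24 strains lay between -0.43 and 0.44. All 4 arrays that stood apart are among those 7 strains, and without these arrays the mean was -0.26 (adjusted p = 0.0043) and the SD 0.45 in place of 0.68. What part those arrays have in the low values was not tested.

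Of the UDP-glucuronosyltransferases, 4 of the 5 Ugt2 genes were lower and none was higher. Ugt2b5, a steroid-conjugating enzyme, ranged from -2.00 in strain 38 over a median of -0.45 to 0.61 in strain 32, and its mean of -0.47 ± 0.10 corresponds to 0.722 of the reference (adjusted p = 3.3e-05). It was below 0 in 28 strains, and strains 15, 38, 39 and 42 stood at -1.06 or below. Ugt2a3, which acts on bile acids, ran from -1.33 in strain 38 over -0.14 to 0.65 in strain 21 (mean -0.22 ± 0.07, adjusted p = 0.0059). Ugt2b37 ran from -1.08 in strain 38 over -0.20 to 0.48 in strain 20 (mean -0.18 ± 0.06, adjusted p = 0.0032). Ugt2b1 had its lowest values in strains 38 and 39 too, at -1.83 and -0.97, a median of -0.04 and its highest value, 0.73, in strain 32. Its mean of -0.13 ± 0.08 did not pass (adjusted p = 0.15), but after place correction it was -0.19 and did (adjusted p = 0.029). Ugt2a1, best known from the olfactory epithelium, had a mean of -0.17 ± 0.08 (adjusted p = 0.035), which did not pass without strain 38 (adjusted p = 0.062) or without strains 23, 28, 40 and 42 (adjusted p = 0.092). Outside this family, Ugt1a6a, a phenol-conjugating form whose gene shares exons with other Ugt1a genes, was lower (-0.24 ± 0.07, adjusted p = 0.0023). Its extremes all came from arrays that stood apart, -1.50 in strain 42, -1.33 in strain 40 and 0.88 in strain 28, and its SD fell from 0.40 to 0.16 without them. Ugt8a, the galactosyltransferase of myelin lipids, was higher (0.20 ± 0.03, adjusted p = 4.4e-06).

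Of the 5 Ugt2 genes, 4 were lowest in strain 38. The upstream stretches of Ugt2b1 (chr5:86926504-86926753), Ugt2b5 (chr5:87140341-87140590) and Ugt2b37 (chr5:87254789-87255038), all GRCm38.p6 and on the minus strand, are shown with the same TTGCNNAA motif in capitals.
Ugt2b1: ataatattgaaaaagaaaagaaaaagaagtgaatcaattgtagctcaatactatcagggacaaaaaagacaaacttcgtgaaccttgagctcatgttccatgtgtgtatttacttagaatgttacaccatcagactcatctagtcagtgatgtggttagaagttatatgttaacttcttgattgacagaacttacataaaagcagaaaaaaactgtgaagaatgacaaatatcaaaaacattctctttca
Ugt2b5: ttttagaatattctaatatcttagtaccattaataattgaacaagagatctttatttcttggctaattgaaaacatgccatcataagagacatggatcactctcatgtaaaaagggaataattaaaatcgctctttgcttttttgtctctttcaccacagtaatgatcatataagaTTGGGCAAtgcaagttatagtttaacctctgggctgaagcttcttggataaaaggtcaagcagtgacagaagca
Ugt2b37: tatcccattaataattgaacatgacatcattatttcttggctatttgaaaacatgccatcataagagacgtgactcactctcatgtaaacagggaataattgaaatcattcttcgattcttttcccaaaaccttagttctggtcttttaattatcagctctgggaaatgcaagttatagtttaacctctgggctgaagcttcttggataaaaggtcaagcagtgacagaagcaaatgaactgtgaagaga
Ugt2b5 and Ugt2b37, with no coding gene between them, shared 72.6% of aligned positions, and Ugt2b5 and Ugt2b1 shared 46.3%. The order of the correlations was the opposite: r was 0.42 for the first pair (rho = 0.27, permutation p = 0.02 and 0.1, adjusted p = 0.93) and 0.67 for the second. The motif was matched once in Ugt2b5 and in neither of the others.

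Sulfotransferases held the most variable member. Sult1c2 ranged from -2.48 in strain 14 over a median of -0.70 to 1.38 in strain 28, and its SD of 0.96 exceeded that of 99.8% of all probes. Its mean was -0.56 ± 0.17 (adjusted p = 0.0023). The strains above 0 were 20, 23, 28, 33, 34, 36, 38, 39, 40 and 42, and the lowest ones 5, 14 and 19, at -1.82 or below. All 4 arrays that stood apart and strain 38 are among those above 0. A single division of the sorted strains, 18 low against 13 high, accounted for 76.2% of its variance, a share above that of 97.1% of all probes. Ugt8a (76.9%) and Mgst1 (76.7%) had similar shares. For Sult1c2 the division fell between strain 32 (-0.54) and strain 29 (-0.33), where the sorted values show no wide gap. The 10 arrays with the earlier archive numbers, strains 1 to 14, averaged -1.26, and the 21 with later numbers -0.23. The difference had an unadjusted p of 0.0018 and an adjusted p of 0.73, and 0% of all probes passed this comparison (0 of 21765 by limma, with 1365 at an unadjusted p under 0.05). The earlier numbers are those of the lowest strain numbers, so strain and archive number cannot be told apart.

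The other sulfotransferases moved less. Sult1a1, the main phenol sulfotransferase, was higher, from -0.19 in strain 40 over 0.25 to 0.75 in strain 19 (mean 0.28 ± 0.04, adjusted p = 4.4e-07). Sult1d1, which sulfates catecholamines, was lower, from -1.71 in strain 42 over -0.27 to 0.68 in strain 33 (mean -0.25 ± 0.09, adjusted p = 0.01), but did not pass without strains 23, 28, 40 and 42 (mean -0.16, adjusted p = 0.052). Sult1b1, a thyroid hormone sulfotransferase, was among the steadiest probes of the array, between -0.33 and 0.19, with an SD of 0.13 that exceeded 1.4% of all probes. Sult2a8, the bile acid sulfotransferase of mouse liver, had a mean of 0.17 ± 0.07 (adjusted p = 0.029), and after place correction 0.08 (adjusted p = 0.32). It ranged from -0.92 in strain 23 over 0.28 to 0.85 in strain 9. Sult2b1, which sulfates cholesterol, had a median of 0.03 and a single high value, 1.94 in strain 38, above a next highest of 0.49, and its lowest value was -1.14 in strain 40. Sult5a1 likewise had 1 high strain, 1.47 in strain 1, with the next at 0.45. The oestrogen sulfotransferase Sult1e1 was highest in strain 38, at 0.95, over a median of 0.06. Means of Sult1b1 (-0.04), Sult1e1 (0.08) and Sult2b1 (0.09) did not pass, although that of Sult1b1 did after place correction (-0.10, adjusted p = 0.00073). Means of Sult1c1, Sult3a1, Sult5a1 and Sult6b1 lay between 0.01 and 0.05 and did not pass, and that of Sult4a1 (0.10 ± 0.04, adjusted p = 0.033) did not pass without strains 23, 28, 40 and 42 (adjusted p = 0.14).

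The members varied more between strains than most probes did. Their median SD was 0.31, against 0.24 for all probes, 28 of 41 lay above that median, and 9 lay above the 90th percentile of all probes, 0.45. Those with the largest SD were Sult1c2, Mgst1 (0.68), Gstm3 (0.61), Gstp1 (0.56), Ugt2b5 (0.55) and Gstt2 (0.54). As a family mean, the 20 soluble glutathione transferases ran from -0.09 in strain 14 to 0.48 in strain 2 and were above 0 in 29 strains. The Ugt2 family mean ran from -1.41 in strain 38 to 0.24 in strain 32 and was above 0 in 7 strains, and the mean of all 12 sulfotransferases stayed between -0.21 in strain 11 and 0.28 in strain 38.

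**Figure D2:**
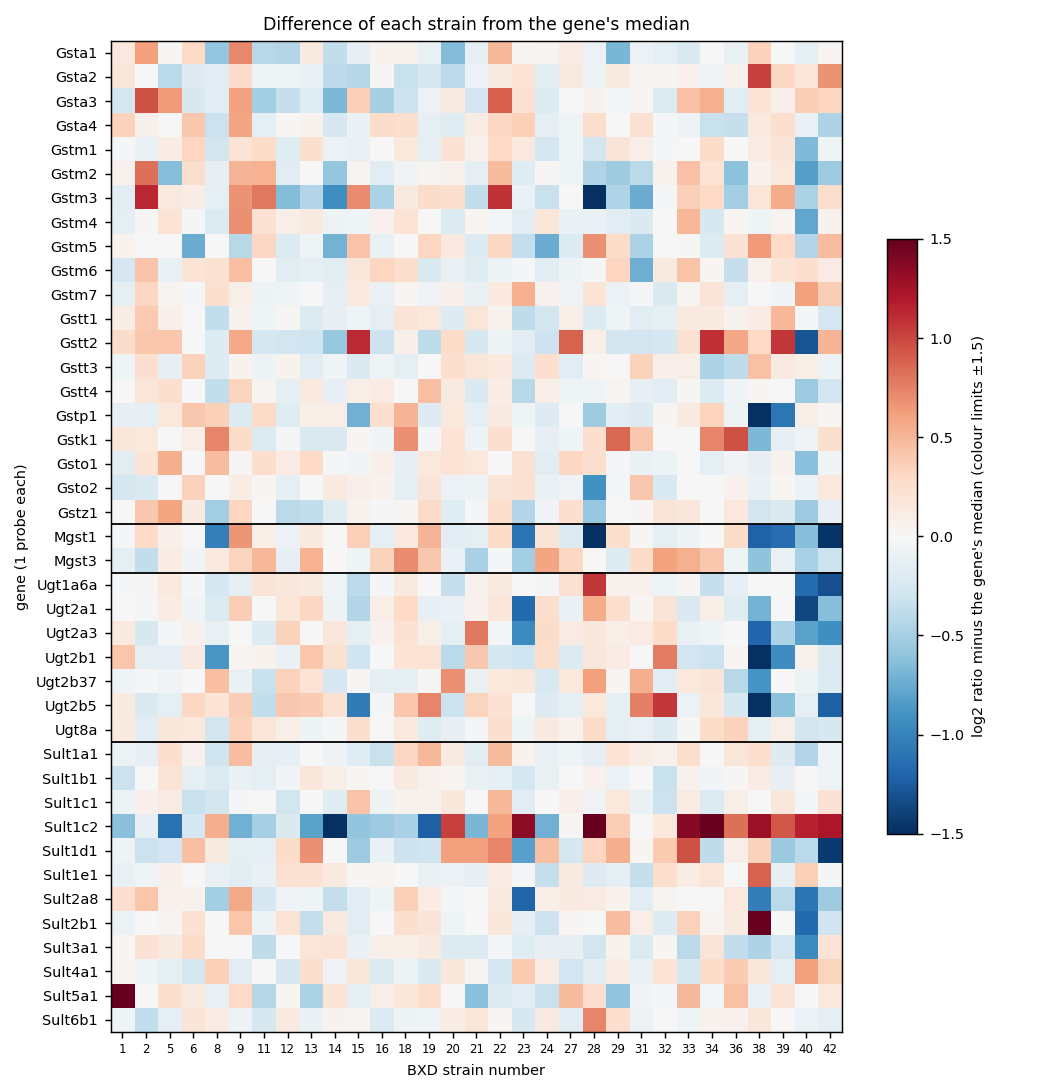
Difference of each strain's log2 ratio from the gene's median over 31 strains (colours limited at ±1.5), genes in rows by family and BXD strains in columns. Strain 38 shows 7 genes at their lowest value and 4 at their highest, and Sult1c2 varies most between strains.

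Strain 38 held extreme values of these enzymes in both directions. In this strain 7 members lay below all other strains (Gstk1, Gstp1, Mgst3, Ugt2a3, Ugt2b1, Ugt2b37 and Ugt2b5) and 4 above all others (Gsta2, Gstt3, Sult1e1 and Sult2b1). That is 26.8% of the members, while of all probes 5.95% lay outside the other strains there, 3.13% below and 2.81% above. Gstp1 in strain 38 was at 0.165 of the median of the other strains, Ugt2b1 at 0.284 and Ugt2b5 at 0.326, and Sult2b1 was at 3.77 times that median and Gsta2 at 2.07 times. In all, 9 members differed from that median by more than 1, against 2.28% of all probes. The strain was singled out after its values were seen and has 1 array, so these values are a description without a test. Strain 40 had more extreme members, 10 lowest and 2 highest, but there 26.2% of all probes were extreme, and strain 28 had 9 with 22.9% of all probes.

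Genes of other kinds were extreme in strain 38 as well. On a list of genes known to differ between male and female liver, 9 were measured. The male-biased Cyp4a12a (-2.36) and C6 (-1.20) were at their lowest there and Cyp7b1 (-1.01) at its second lowest. The female-biased Cyp2a4 was at its highest (1.01). The other 5 genes of the list were not at an extreme: the male-biased Cyp2d9, Slco1a1 and Elovl3 stood at 0.44, 0.05 and -0.25, Cyp17a1 at 0.29, rank 16 from the lowest, and the 2 probes of Fmo2 at 0.09 and 0.12. Outside the list, looked up after the values were seen, Cyp2b9 (1.39) and 1 of the 2 probes of Cyp2b13 (1.11), known as female-biased, were at their highest, and the other Cyp2b13 probe stood at 0.13. The Cyp3a genes measured went different ways there. Cyp3a13 was at its highest (0.61) and Cyp3a41a at its second lowest (-0.84), while Cyp3a16 (0.03) and Cyp3a25 (0.55) were at neither extreme. Both PAPS synthetases, which make the sulfate donor, were highest in strain 38 (Papss1 at 0.47 and Papss2 at 0.69). Of 9 Y-linked genes measured, Uty was lowest there, at -2.88, while the others ranked between 9 and 27 from the lowest, and Xist ranked 7. The labels give this pool as male. Over the cell type lists, the mean level of the 5 cholangiocyte genes was highest in strain 38 (0.05, against -0.50 to 0.05 over strains) and that of the 9 exocrine pancreas genes lowest (-0.48). Single genes of these lists differed: Krt19 was at its highest, and Krt7 ranked 28, Cftr 23, Epcam 18 and Sox9 17 from the lowest. Among the pancreas genes Cpb1 was at its lowest, and Amy2 (-2.56), Ctrb1 (0.02), Cpa1 (0.03) and Cela1 (-0.19) were at their second lowest. Prss1 ranked 9, Amy1 10, Cela2a 17 and Cel 29. The part of any of these in the transferase values was not tested.

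Co-variation among the members as a whole was weak. The mean correlation over all 820 pairs was 0.06, and 4.15% of pairs had r above 0.5 and 1.95% below -0.5, against 3.47% and 3.17% for pairs of all probes. Within families the mean r was 0.47 for Ugt2, 0.32 for Gsta, 0.18 for Gstm and for Gstt, and 0.09 for Sult1. The Ugt2 value owed much to single strains, since it was 0.29 without strain 38 and 0.24 when strains 23, 28, 40 and 42 were left out as well. The Gsta and Gstm values were 0.38 and 0.28 under that last setting.

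**Figure D3:**
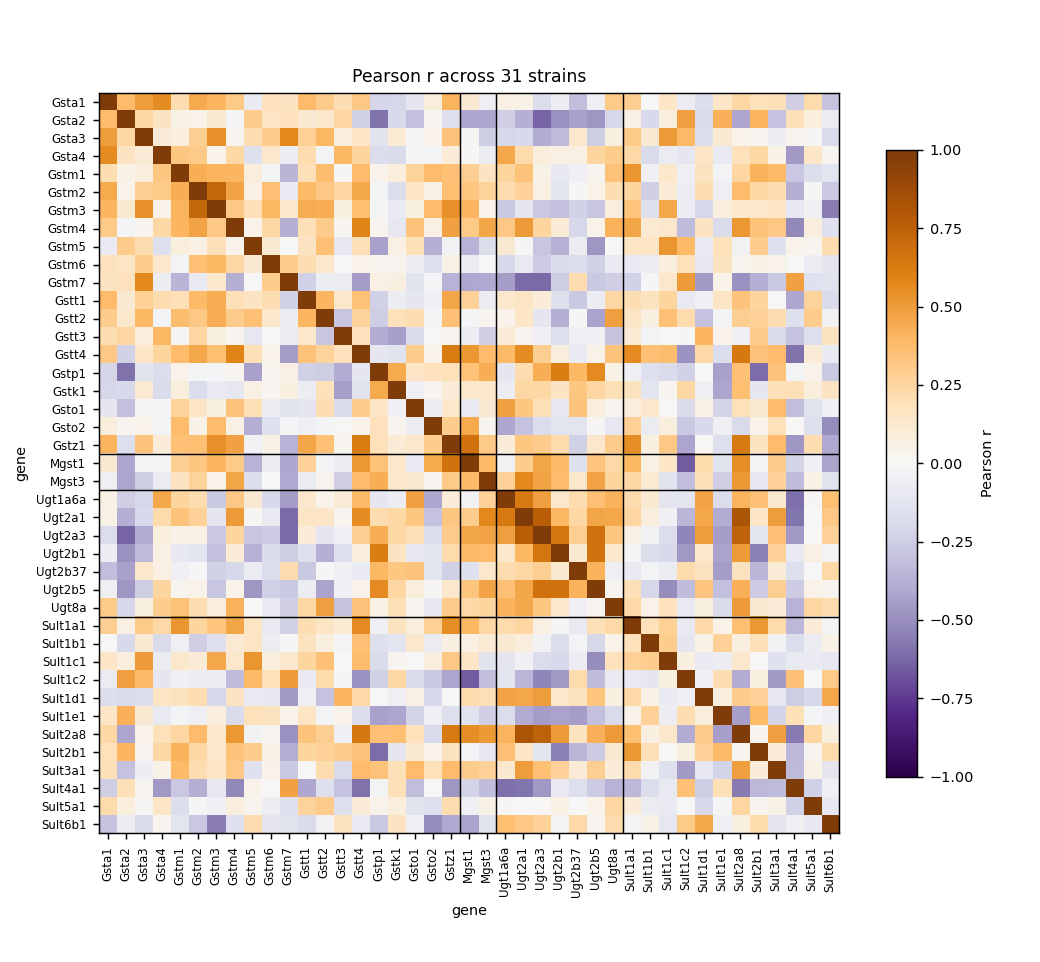
Pearson correlation of every pair of the 41 genes across 31 strains, genes ordered by family, with black lines between Gst, Mgst, Ugt and Sult. The block of Ugt1 and Ugt2 genes is mostly positive (Ugt2a1 and Ugt2a3 at 0.77), and the strongest negative pair is Mgst1 and Sult1c2 at -0.66.

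Each member in turn was set against all other probes in a limma regression over strains. Summed over the 41 regressions, members passed in 6.34% of cases and all probes in 5.65%, so the shares were close. In 31 of 820 pairs both regressions passed, 20 with a positive and 11 with a negative slope. No such two-way share was taken for pairs of all probes, so this count stands without a background. Some of these pairs were lost without strains 23, 28, 38, 40 and 42, and others were kept. The r of Gstm7 and Sult2a8 went from -0.48 to 0.12, while that of Sult2a8 and Gstz1 was 0.64 in both settings. The pairs given next hold the 8 of highest r, the 3 of lowest r, and others chosen after their values were seen because the genes are neighbours or share their extreme strains. They have permutation p-values from 100000 resamples, of which 1e-05 is the smallest they can give.

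Gstm2 and Gstm3 had r = 0.72 and rho = 0.76 (permutation p = 1e-05 for both, adjusted p = 0.011). Their r was 0.68 without strains 2 and 40, 0.80 without the 4 arrays that stood apart, and 0.80 and 0.68 within the earlier and later archive numbers. None of these settings moved the r far, but in the regression on ranks no probe passed with either gene. Another adjacent pair, Gsta1 and Gsta4, had r = 0.56 and rho = 0.59 (permutation p = 0.001 and 0.0008, and 0.50 without strains 9 and 29), but an adjusted p of 1 over all probes. Gsta3 and Gstm7, on different chromosomes, had r = 0.58 and rho = 0.71 (permutation p = 0.0006 and 2e-05, adjusted p = 0.049, r = 0.56 without strains 2 and 22). Gsta3 and Gstm3, both highest in strains 2 and 22, had r = 0.54 and rho = 0.53 (permutation p = 0.001 and 0.003, adjusted p = 0.06), and 0.37 without those strains.

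The strongest correlation of all was between Sult2a8 and Ugt2a1, at r = 0.83 (adjusted p = 5.6e-06, permutation p = 1e-05), but its rho was 0.54 (permutation p = 0.002) and its r fell to 0.66 without strains 23 and 40 and to 0.42 without strains 23, 28, 38, 40 and 42. Ugt2a1 and Ugt2a3 (r = 0.77, rho = 0.64, permutation p = 4e-05 and 0.0001, adjusted p = 2.7e-05, 0.69 without strains 23 and 40) and Sult2a8 and Ugt2a3 (r = 0.75, rho = 0.48, permutation p = 1e-05 and 0.006, adjusted p = 0.00011, 0.63 without strains 23 and 40) fell to 0.34 and 0.21 when the same 5 strains were left out. These 3 pairs therefore rest largely on those 5 strains. Of the other 3 pairs of Ugt2 genes with r above 0.5, Ugt2a3 and Ugt2b1 did not fall when those 5 strains were left out. Ugt2a3 and Ugt2b5, and Ugt2b1 and Ugt2b5, fell less, to 0.54 and 0.53. This order did not hold under each setting. Without strain 38, Ugt2a1 and Ugt2a3 kept r = 0.76, while Ugt2a3 and Ugt2b1, and Ugt2b1 and Ugt2b5, had 0.50. Pairs with Ugt2b37 fell too: without the 5 strains, Ugt2b1 and Ugt2b37 went from 0.12 to -0.47, and Ugt2b37 and Ugt2b5 from 0.42 to 0.12. Ugt2a3 and Ugt2b1 had r = 0.66 and rho = 0.72 (permutation p = 0.0003 and 3e-05, adjusted p = 0.0085), 0.49 without strains 23 and 38, and 0.67 without the 5 strains. Ugt2a3 and Ugt2b5 had r = 0.67 and rho = 0.65 (permutation p = 9e-05 and 0.0001, adjusted p = 0.0071), 0.63 without strains 23 and 38, and 0.54 without the 5. Ugt2b1 and Ugt2b5 had r = 0.67 and rho = 0.51 (permutation p = 0.0001 and 0.004, adjusted p = 0.0072), and 0.45 without strains 38 and 39. Within the earlier archive numbers that last r was 0.13 and within the later ones 0.74.

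Gstp1 shared its low strains with Ugt2b1 and Ugt2b5, and its correlations with them were made by those strains. Gstp1 and Ugt2b1 had r = 0.62 (permutation p = 0.006, adjusted p = 0.019) but rho = 0.01 (permutation p = 1.0), and r was 0.17 without strain 38 and -0.16 without strains 38 and 39. Gstp1 and Ugt2b5 had r = 0.57 and rho = 0.18 (permutation p = 0.003 and 0.3, adjusted p = 0.066), and 0.17 without those 2 strains. Gstp1 and Sult2b1 had r = -0.62 and rho = -0.03 (permutation p = 0.02 and 0.9, adjusted p = 0.062), and 0.02 without strain 38.

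**Figure D4:**
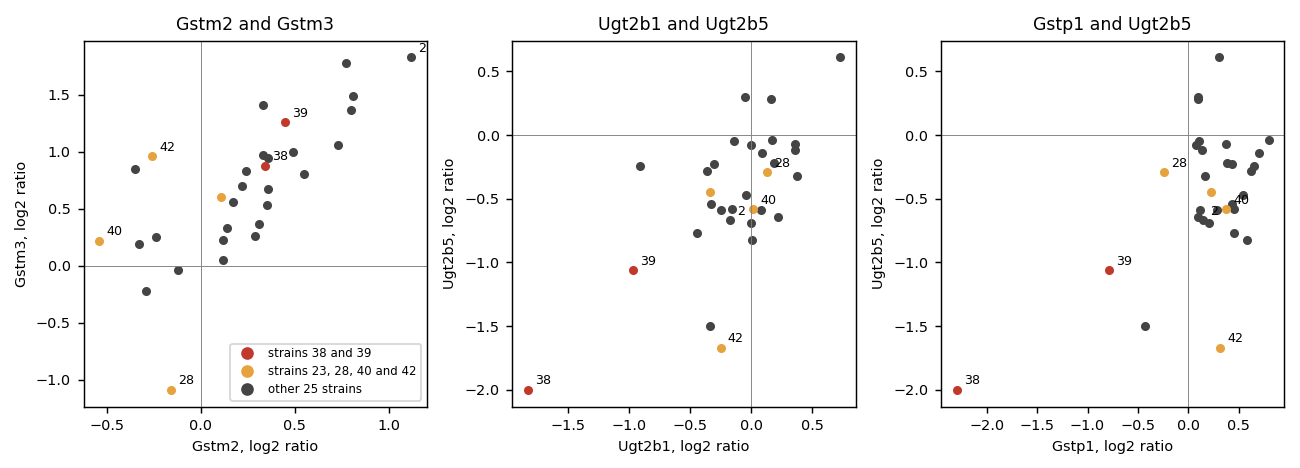
Log2 ratios of strain over reference for Gstm2 and Gstm3 (left), Ugt2b1 and Ugt2b5 (middle) and Gstp1 and Ugt2b5 (right), 1 point per strain, with strains 38 and 39 in red, the 4 arrays that stood apart in orange and selected strains numbered. The left cloud rises across its range (r = 0.72), whereas the right one owes its r of 0.57 to strains 38 and 39 (0.17 without them).

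Mgst1 and Gstz1 had r = 0.67 and rho = 0.67 (permutation p = 4e-05 and 5e-05, adjusted p = 0.006), and 0.66 without strains 28 and 42. The lowest correlation was that of Mgst1 and Sult1c2, at r = -0.66 and rho = -0.59 (permutation p = 4e-05 and 0.0007, adjusted p = 0.0011). Strain 28, lowest for Mgst1 and highest for Sult1c2, contributed to it, and r was -0.55 without strains 28 and 42 and -0.37 without strains 23, 28, 38, 40 and 42. Gstm7 and Ugt2a3 had r = -0.62 and rho = -0.58 (permutation p = 0.0005 and 0.0007, adjusted p = 0.0031, -0.43 without strains 23 and 40). Gsta2 and Ugt2a3 had r = -0.64 and rho = -0.36 (permutation p = 0.0003 and 0.05, adjusted p = 0.085), and -0.32 without strains 38 and 42.

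How many other probes followed a member depended on the member. The largest shares, 35.6% with Gstm7, 34.7% with Ugt2a1 and 33.0% with Ugt2a3, came with genes taken up after the values were seen. Without strains 23, 28, 40 and 42 the share was 3.06% with Ugt2a1 and 6.38% with Ugt2a3. With strain 38 left out as well it was 0.0597% and 0.666%. Gstm7 was not set against all probes under these settings. The rule took the most variable gene of Gsta, Gstm, Gstt, Mgst, Ugt2, Sult1, Sult2 and the remaining Sult genes, and for these 15.8% of all probes passed with Sult1c2 and 15.5% with Mgst1, 2.39% with Ugt2b5, 2.27% with Gsta3, 1.30% with Gstm3, 0.809% with Gstt2, 0.106% with Sult2b1 and 0% with Sult5a1. Of the other 40 members, 6 passed with Sult1c2 (2 with a positive slope, 4 with a negative one), 5 with Mgst1 (4 positive, 1 negative), 3 with Ugt2b5, 2 with Gsta3 and 1 with Gstm3, all positive for the last 3, and none with Gstt2, Sult2b1 or Sult5a1. Without strains 23, 28, 40 and 42 the number of probes passing with Mgst1 fell from 3373 to 130 and that with Sult1c2 from 3440 to 801. Their members fell from 5 to 2 and from 6 to 1. With Sult2b1 the members rose from 0 to 5, and the probes passing from 23 to 124, or 0.57% of all. Without strain 38 the probes passing with Ugt2b5 fell from 521 to 60 and its members from 3 to 0. The members of Gsta3 fell from 2 to 0 and its probes from 493 to 391, or 1.8% of all. Members of Sult2b1 rose from 0 to 8 and its probes from 23 to 2913. Without all 5 strains, members passed with Gsta3 (3) and Gstm3 (2) and with none of the other 6 genes. Of all probes, 3.8% passed with Gsta3 and 1.16% with Gstm3 under that setting.

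The genes whose pattern was closest to Sult1c2 were Tuba4a, a tubulin (r = 0.95 over 31 strains, 0.93 without strains 23, 28, 38, 40 and 42), Eef1akmt2 (0.91), B230217C12Rik (0.89), Scel, sciellin of cornified epithelia (0.88), and Gadl1 (0.87). These relations kept an r of at least 0.81 without the 5 strains. The genes closest to Gstm3 were Csf3 and Ppia (both 0.77), Apeh (0.76), and Rps6 and Naa50 (both 0.75), with at least 0.71 without them. Those closest to Ugt2b5 were Ptger3 and Clcn1 (both 0.76), Klrb1b and Ypel5 (both 0.75) and Msn (0.74), with 0.53 to 0.71 without the 5 strains. For Mgst1 they were Herpud1 (0.79), Zswim9 (0.76), Ptgir (0.75), 2310039H08Rik and Supt4b (both 0.74), and these fell to between 0.13 and 0.41. These genes were selected for their r out of all named probes, so the values are a description.

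The genes that supply the cosubstrates did not move as blocks. Of 27 probes for glutathione supply and NRF2 targets, 9 were higher, 8 lower and 10 not passing, with a median mean of 0.03. After place correction 10 were higher and 10 lower, and Me1, an enzyme that makes NADPH, turned from -0.48 to 0.09 (adjusted p = 0.029). Gclm, the modifier subunit of the enzyme that limits glutathione synthesis, was lower (-0.69 ± 0.08, adjusted p = 1.8e-09), and the catalytic subunit Gclc had -0.03 ± 0.05 (adjusted p = 0.65). Taldo1, of the pentose phosphate pathway, was higher (0.97 ± 0.07, adjusted p = 5.1e-15), as was the carboxylesterase Ces1g (0.60 ± 0.14, adjusted p = 0.00015). Ces1g also had the largest SD of the list (0.79). The aldehyde oxidase Aox1 had 0.66, but 0.22 without strain 27, where it stood at 3.65 over a median of 0.18.

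For UDP-glucuronic acid supply, 2 of 6 probes were higher and 3 lower, with a median of -0.05. After place correction 3 were higher and 2 lower, with a median of 0.13, since Ugdh, which makes UDP-glucuronic acid, turned from -0.16 (adjusted p = 0.016) to 0.42 (adjusted p = 1.1e-08). Gusb, the glucuronidase that reverses glucuronidation, was lower (-0.49 ± 0.04, adjusted p = 3.2e-12), and the phosphoglucomutases went opposite ways, Pgm1 at 0.30 ± 0.03 and Pgm2 at -0.32 ± 0.02. For sulfate and PAPS supply, 4 of 8 were higher and 1 lower, with a median of 0.09. Cdo1, the cysteine dioxygenase, stood at 0.47 ± 0.06, and the phosphatases Bpnt2 and Bpnt1 at 0.38 ± 0.03 and 0.26 ± 0.03. All 3 passed, and Papss1 and Papss2 did not.

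Of 13 probes for other conjugating enzymes, 4 were higher and 4 lower, with a median of 0.00. The 3 lowest, Nat8 (-0.97 ± 0.09), Baat (-0.92 ± 0.09) and Glyat (-0.72 ± 0.08), all sit at places with low means, and after place correction they stood at -0.39, -0.34 and -0.15, the last not passing (adjusted p = 0.15). Of 28 probes for receptors and factors of drug metabolism, 10 were higher and 13 lower, with a median of -0.08. After place correction 9 were higher and 12 lower, and the pregnane X receptor Nr1i2 turned from -0.41 to 0.17 (adjusted p = 0.0093) and its partner Rxra from -0.17 to 0.40 (adjusted p = 4.9e-08). Cebpb was higher (0.77 ± 0.07, adjusted p = 1.2e-12), while the 2 probes of Hnf4a passed in opposite directions, -0.79 ± 0.06 and 0.20 ± 0.03. Of 17 probes for oxidases driven by these receptors, 7 were higher and 3 lower, with a median of 0.13. The counts in these lists, too, stand beside 75.0% of all probes passing.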

How the data were processed

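Liver RNA pools of 31 strains were measured on 2-colour arrays. The authors deposited normalized ratios, read here as log2 values. For their making, the submitters' processing notes name limma and R 2.0.0. Log base, direction, background correction and normalization method were not given in the sources used here. Every array had the same distribution of values (median -0.001, SD 0.51), so the ratios are relative to the array's other probes. Of 23040 features, 1275 were empty and the others were tested. Intensities were not used here, so signal over background is unknown, and precision is limited by the number of arrays.

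Probes were named from the platform annotation (1 gene for 16642, several for 134, none for 4989), and 15964 names were updated by gene ID from RefSeq. Panel means and regressions on a member used limma 3.58.1 in R 4.3.3 (lmFit, eBayes, two-sided, Benjamini-Hochberg adjustment over all probes), after tests on simulated data. Place correction subtracts from each array the median of each class of identifiers by remainder after division by 8. Members, lists and the alternatives on strains 23, 28, 40 and 42 were chosen with earlier results of these data known. The alternatives on strains 27 and 38 and on archive numbers were chosen after seeing the values. Each family's 3 largest means and 3 largest SDs, the most variable member of 8 families, the 8 highest and 3 lowest pairs, per list up to 3 genes by mean and 2 by SD, and the 5 nearest genes of 4 members were named by rule. Other pairs and genes were named after their values were seen. RefSeq promoters matched 38 of 41 members.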

Additional observations from a re-analysis of the deposited data

How the results depend on the processing

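Over 8 alternatives, no member with a passing mean changed sign, and 29 of 41 members kept their call under all of them except the test of means beyond 0.2. That stricter test cut the members passing from 29 to 9 (7 higher, 2 lower) and all probes passing from 16325 to 7229. Without strains 23, 28, 40 and 42, 26 members passed, with place correction 29 (15 higher, 14 lower), and without strain 38, 29. Calls were lost for Sult1d1, Ugt2a1 and Sult4a1 without the 4 strains, for Sult2a8 and Sult4a1 with place correction, for Ugt2a1 without strain 38, for Gstm5, Ugt2a1 and Sult4a1 in the robust fit, and for Ugt2a1, Ugt2a3 and Sult4a1 without strains 23, 28, 38, 40 and 42. Calls were gained for Gstp1 in the fits without strain 38 and in the robust fit, for Sult1b1 and Ugt2b1 with place correction, for Gsta1 in the robust fit, and for Sult2b1 and Sult3a1 without the 5 strains. Regressions depended more on single arrays. Over the 8 members chosen by rule as the most variable of their families, 17 member calls and 8310 calls of all probes were made. Member calls fell to 11 with the archive number range as a block, to 8 on ranks, and to 5 without strains 23, 28, 38, 40 and 42. They summed to 17 again without strain 38, without strains 23, 28, 40 and 42, and with place correction. The equal totals held different calls when strains were left out. Without strain 38, Gsta3 went from 2 to 0, Ugt2b5 from 3 to 0 and Sult2b1 from 0 to 8. Without strains 23, 28, 40 and 42, Sult1c2 went from 6 to 1, Mgst1 from 5 to 2 and Sult2b1 from 0 to 5. Without strain 38 alone, calls of all probes rose to 10066. Calls of all probes fell to 2878 without strains 23, 28, 40 and 42, to 2817 with place correction added, to 3661 with the first principal component as a covariate, to 5363 on ranks and to 1664 without the 5 strains. The mean r of Gstm moved from 0.18 to 0.27 without the 4 strains, 0.28 with place correction added and 0.28 without the 5, that of Ugt2 from 0.47 to 0.24 without the 5, and that of all Ugt from 0.37 to 0.13. The other mean correlations (55 compared in all) moved by less than their error. All 37 family means moved by less than their SD over strains, but some by more than their SE. With place correction the Ugt2 mean went from -0.23 to -0.31 (SE 0.06) and the Gsta mean from -0.08 to -0.14 (SE 0.04). Of 165 SDs over strains compared, that of Aox1 included, 23 moved. The causes were not tested. No paired analysis was possible because all arrays form a single group. With 1 array per strain, a single extreme array cannot be told apart from its strain.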
